A study of Mus musculus with 8 samples.

Results

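The p53 pathway was followed through 10 genes of mouse muscle stem cells: the transcription factor gene Trp53, its inhibitors Mdm2 and Mdm4, and the targets or relatives of targets Ccng1, Ccng2, Sesn1, Sesn2, Zmat3, Phlda3 and Perp. They were taken from the deposited gene table by symbol, and each symbol matched 1 line, giving 10 of 45706 gene lines. Muscle stem cells are the resident progenitors that rebuild skeletal muscle after injury. The cultured cells were 3 libraries of cells held for 48 h on a hydrogel with a stiffness of 12 kPa. They were set against 5 libraries of freshly sorted cells, of which replicates 1 to 3 were sequenced in run 1 and replicates 4 and 5 in run 2, together with the cultured libraries. All cells came from hindlimb muscle of wild-type female C57BL/6 mice aged 8 to 12 weeks. They were sorted as positive for α7-integrin and CD34 and negative for CD45, Sca1, CD31 and CD11b. The growth medium, listed for every library, was 20% serum, 40% low-glucose medium and 40% F-10. No source used here says whether libraries came from separate animals or dishes. The p-values therefore measure the spread between these libraries, which may be technical.

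The transcription factor p53 is held low in unstressed cells because Mdm2, a ubiquitin ligase, marks it for destruction, and Mdm4, a relative of Mdm2, covers its activation domain. Stress releases p53, which then switches on genes that halt the cell cycle, repair DNA, alter metabolism or start cell death, and also switches on Mdm2, which closes a feedback loop. Because p53 is controlled largely through protein stability, its transcript and its activity need not move together. Sesn1 and Ccng2, a relative of Ccng1, are also known targets of FoxO factors, which keep stem cells quiescent.

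Total counts ran from 16654631 to 20068154 in cultured libraries and from 13919440 to 20055185 in fresh ones. Genes with any count numbered 15415 to 17852 in cultured libraries, 32710 to 34689 in run-1 fresh libraries, and 20480 and 20898 in run-2 fresh libraries. The cause of this difference was not tested. Levels are given as CPM, the counts of a gene scaled to a common library size with TMM factors. Mitochondrial ribosomal RNA took 11.1 to 18.4% of counts in cultured libraries, 5.25 to 10.5% in run-1 fresh libraries and 23.2 to 26.5% in run-2 fresh libraries. The 8 muscle stem cell markers, of which 5 fell and 1 rose, were all detected in culture, and their summed level was 1196 to 1413 CPM in cultured and 3972 to 5158 CPM in fresh libraries. The 6 markers of dividing cells all rose and summed to 818 to 1164 CPM in cultured and 15.7 to 65.8 CPM in fresh libraries. Markers of other cell types were measured as well. The 9 pericyte markers, of which 6 fell, summed to 22.4 to 29.6 CPM in cultured libraries, with Kcnj8 and Abcc9 at 0, and to 442.9 to 2661 CPM in fresh ones, lowest in fresh replicate 1. The 6 fibro-adipogenic markers, of which 4 fell, summed to 7.59 to 19.0 CPM in cultured libraries, with Ly6a at 0, and to 877 to 1202 CPM in fresh ones. The 5 Schwann cell markers, which all fell, summed to 0.0527 to 3.82 CPM in cultured libraries, with Sox10 at 0, and to 77.7 to 842 CPM in fresh ones. The 7 endothelial markers, of which 2 fell, summed to 1.70 to 47.0 CPM in cultured and 93.1 to 136 CPM in fresh libraries. Of 5 tested blood markers 2 fell. The 6 listed blood markers summed to 0.255 to 5.92 CPM in cultured and 24.7 to 69.9 CPM in fresh libraries. Of 6 myofibre markers 1 fell, and they summed to 126 to 255 CPM in cultured and 100.3 to 127 CPM in fresh libraries. In bulk RNA, fewer cells of a type and less RNA per cell cannot be told apart.

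Promoter sequence was looked at because most of the 10 genes moved with culture. RefSeq windows (build GRCm38.p6) from 250 bases before to 50 bases after a gene's start were matched by symbol for 8 of the genes, with 10 windows in all, since Mdm4 and Sesn1 have 2 each. The p53 consensus decamer, searched on both strands, was found in 4 of the 10 windows and in 8.36% of all 32851 windows. Those 4 belong to Trp53, Mdm2 and Ccng1, which were higher in culture, and to Sesn1, which was lower. The letters CATG, then any 6 bases, then CATG, the core of adjoining decamers, were in none of the 10 windows and in 0.712% of all. The FoxO core motif GTAAACA, searched on both strands, was in the Mdm2 window and in the other Sesn1 window, and in 3.65% of all windows. No matches of the different motifs overlapped in these windows. The 250 bases before the start are shown for the 4 windows with a decamer, 5′ to 3′ on the gene's strand, with motif matches in capitals.
Trp53: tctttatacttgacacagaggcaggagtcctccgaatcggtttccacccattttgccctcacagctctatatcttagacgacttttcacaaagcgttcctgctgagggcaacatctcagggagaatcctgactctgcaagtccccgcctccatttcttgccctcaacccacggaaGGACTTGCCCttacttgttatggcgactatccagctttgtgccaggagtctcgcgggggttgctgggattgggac
Mdm2: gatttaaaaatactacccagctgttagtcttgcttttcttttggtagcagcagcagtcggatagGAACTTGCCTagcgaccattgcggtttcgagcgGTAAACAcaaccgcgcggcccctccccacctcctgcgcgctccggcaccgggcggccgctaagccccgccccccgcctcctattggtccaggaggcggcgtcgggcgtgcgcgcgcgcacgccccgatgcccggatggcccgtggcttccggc
Ccng1: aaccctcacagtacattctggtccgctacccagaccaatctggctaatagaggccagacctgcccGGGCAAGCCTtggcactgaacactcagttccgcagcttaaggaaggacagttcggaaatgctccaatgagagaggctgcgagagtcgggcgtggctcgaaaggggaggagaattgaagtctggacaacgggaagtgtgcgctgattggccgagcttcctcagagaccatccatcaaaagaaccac
Sesn1: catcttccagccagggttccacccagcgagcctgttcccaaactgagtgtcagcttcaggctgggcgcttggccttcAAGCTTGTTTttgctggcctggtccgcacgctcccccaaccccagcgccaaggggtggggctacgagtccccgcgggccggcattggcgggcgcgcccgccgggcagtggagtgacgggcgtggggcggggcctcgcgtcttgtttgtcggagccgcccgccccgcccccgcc
These stretches lie at chr11:69580109-69580358 (plus strand), chr10:117710759-117711008 (minus strand), chr11:40755287-40755536 (minus strand) and chr10:41887189-41887438 (plus strand). In capitals, Trp53 has GGACTTGCCC at bases -75 to -66 from the start, Mdm2 has GAACTTGCCT at -186 to -177 and GTAAACA at -153 to -147. Ccng1 has GGGCAAGCCT at -185 to -176, and Sesn1 has AAGCTTGTTT at -173 to -164. A match describes letters and is no evidence of binding.

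Cultured cells were compared with fresh ones to see what 48 h on the gel did to these transcripts, and the genes moved in both directions. Of the 10 genes, all of which passed the filter on low counts, 6 rose (Trp53, Mdm2, Ccng1, Sesn2, Zmat3 and Phlda3), 2 fell (Ccng2 and Sesn1), and Mdm4 and Perp did not pass the test. A gene was called at a Benjamini-Hochberg adjusted p under 0.05 over all 19054 genes tested, in edgeR's quasi-likelihood test with sequencing run as a term. By that rule 8.87% of all tested genes were higher and 18.0% were lower, 1691 and 3431 genes. Without scaling factors the split over all genes was 2452 higher and 2857 lower, and the median of all tested genes moved to 0.03 from -0.21 on the log2 scale. The 10 genes kept 6 calls higher and 2 lower under that setting. With run 2 alone, only 4 of them were called higher and 2 lower. With single libraries left out, 5 to 6 were called higher and 2 to 3 lower. The median log2 fold change was 2.01 over the 10 genes. All cultured libraries lay above all fresh ones for 5 of the genes (13.7% of tested genes) and below them for 3 (26.1%), and 39.9% of tested genes lay on one side. Because run 1 held no cultured library, each fold change is relative to fresh replicates 4 and 5.

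**Figure D1:**
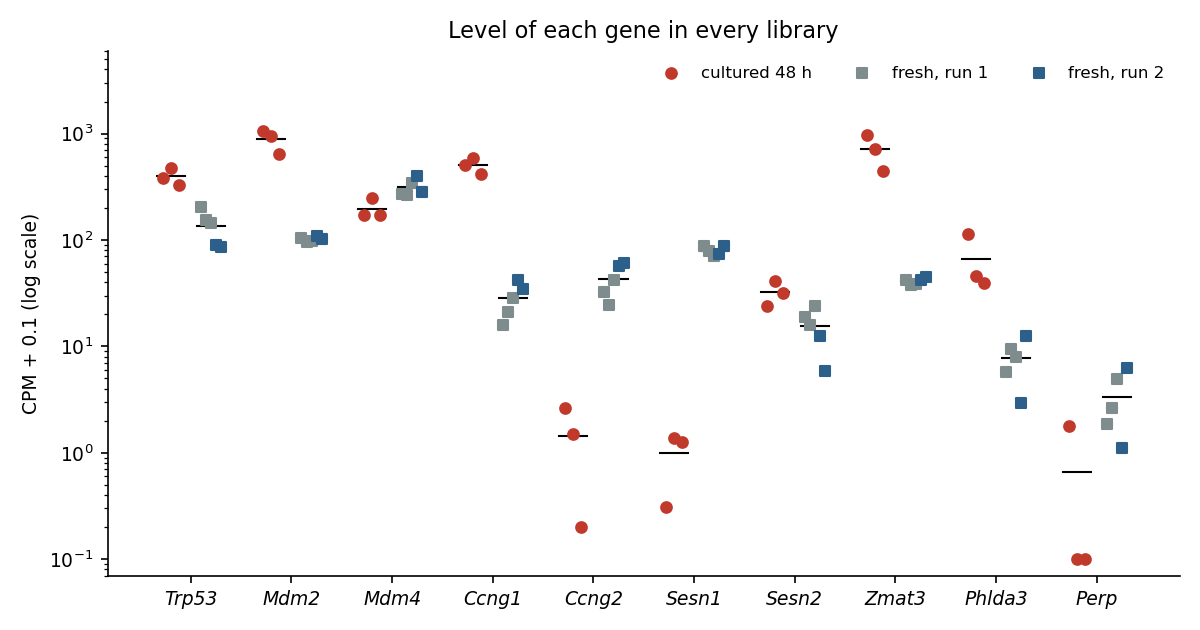
Level of the 10 genes in each library, as CPM + 0.1 on a log axis, with cultured libraries (circles) left of fresh ones (squares, coloured by run) and a bar at each group's mean. Mdm2, Ccng1, Zmat3 and Phlda3 stand far above the fresh libraries in culture, Ccng2 and Sesn1 far below, and the groups overlap for Sesn2 and Perp.

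Trp53, which encodes p53 itself, stood at 383, 476 and 329 CPM in cultured libraries, against 205, 153, 146, 89.3 and 85.0 CPM in fresh replicates 1 to 5. Every cultured library was above every fresh one, and the fresh libraries split by run, with both run-2 libraries lowest. Trp53 rose by 2.18 ± 0.27 on the log2 scale (± SE; adjusted p = 0.00106, edgeR). Set against only the fresh libraries of run 1, the log2 fold change was 1.30 (adjusted p = 0.00475), and with no run term 1.55. Between the fresh libraries, run 2 minus run 1 was -0.95 ± 0.26 (adjusted p = 0.0852, edgeR), which did not pass the test. It was called with DESeq2 (-0.96; 0.0395) and in edgeR on the fresh libraries alone (-0.9999; 0.0360). In the edgeR fit of all 8 libraries none of the 10 genes was called for run, although Trp53 and Ccng1 had an unadjusted p under 0.05 (0.00540 and 0.0196), and 0.189% of all tested genes were (0.0945% higher and 0.0945% lower in run 2). The share of mitochondrial ribosomal RNA given above differs between the same libraries, and its part in the Trp53 level was not tested.

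Mdm2, the ligase that removes p53, stood at 1068, 949.5 and 648 CPM in cultured libraries, against 104, 94.6, 98.5, 108 and 103 CPM in fresh ones. The groups were far apart, and the 5 fresh libraries had a mean of 102 ± 5.27 CPM (SD, n = 5) with both runs mixed in order. Mdm2 rose by 3.07 ± 0.28 on the log2 scale (adjusted p = 0.000253), and by 3.22 against run-1 fresh libraries. Mdm4, the relative that blocks p53 without removing it, was lower in every cultured library than in any fresh one. It stood at 171, 247 and 170.0 CPM in cultured libraries, against 272, 265, 346, 401 and 279.7 CPM in fresh ones. The log2 fold change of -0.80 ± 0.27 missed the threshold (adjusted p = 0.0576). It passed with DESeq2 (-0.86; adjusted p = 0.0342), with the size factors of DESeq2 in edgeR (-0.86; 0.0457) and without cultured replicate 2 (-0.99; 0.0315), and was -0.37 without scaling factors. A line for a processed copy, Mdm4-ps, held 9.23 to 93.9 expected counts in cultured and 54.4 to 165 in fresh libraries, so a small part of the Mdm4 reads could be divided between them.

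Ratios of paired genes within a library cancel the scaling between libraries. A ratio is of CPM and not per length, so only its difference between groups is read. The 5 ratios were compared by an exact two-sided permutation test over the libraries. With 3 against 5 libraries the smallest p is 0.0357. Each of the 5 ratios reached it, with no overlap between groups, and an adjusted p = 0.0357 over the 5 tests (exact permutation test). For Mdm2 to Mdm4, Mdm4 to Trp53 and Ccng1 to Ccng2 this outcome was fixed in advance. Both genes of each ratio already separated the groups, in opposite directions. The levels fixed it for Sesn1 to Sesn2 as well. Sesn1 was at least 70.0 CPM in fresh and at most 1.29 CPM in cultured libraries. Sesn2 was at most 23.99 CPM in fresh and at least 23.98 CPM in cultured libraries. Sequencing run is not a term in this test, and the genes were chosen with earlier results known. The pseudocount of 0.5 CPM is near the cultured levels of Ccng2 and Sesn1, so the sizes of the ratios that hold these genes depend on it. The log2 ratio of Mdm2 to Mdm4 was 2.17 ± 0.41 in cultured and -1.60 ± 0.23 in fresh libraries (SD, n = 3 and 5), a difference of 3.77. The log2 ratio of Mdm2 to Trp53 was 1.15 ± 0.28 in cultured and -0.34 ± 0.58 in fresh libraries, where it was 0.27 in both run-2 libraries and between -0.97 and -0.56 in run 1. The difference was therefore 0.88 against run-2 fresh libraries and 1.89 against those of run 1. The log2 ratio of Mdm4 to Trp53 was -1.02 ± 0.12 in cultured and 1.26 ± 0.70 in fresh libraries, a difference of -2.96 against run 2 and -1.83 against run 1.

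**Figure D2:**
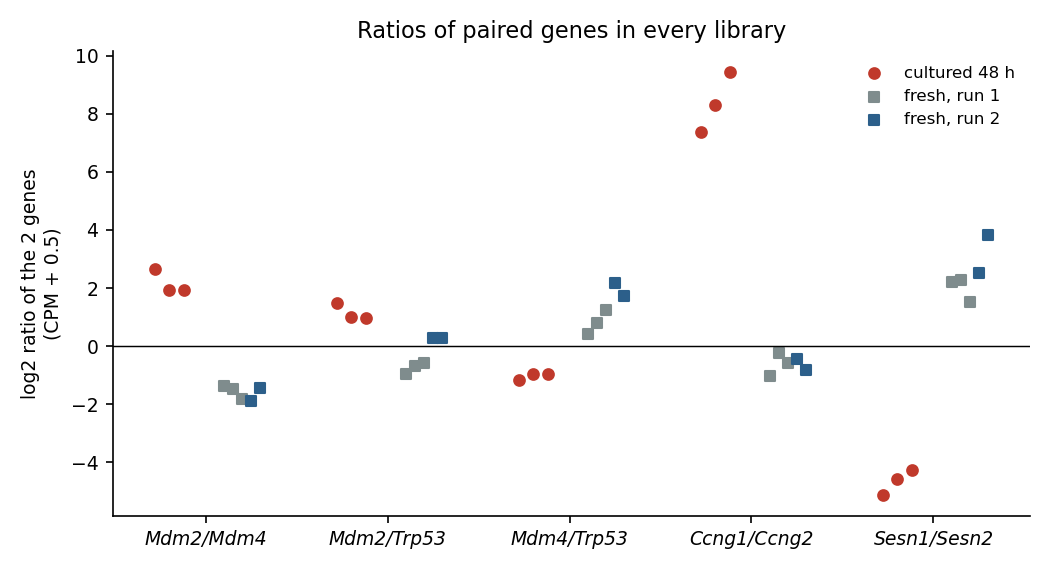
Log2 ratio of the CPM (+ 0.5) of paired genes in each library, cultured (circles) left of fresh (squares, coloured by run). No ratio overlaps between the groups, and the difference for Ccng1 to Ccng2 is 8.99.

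The cyclin G genes went in opposite directions. Ccng1, a p53 target whose product brings a phosphatase to Mdm2, stood at 507, 594 and 418 CPM in cultured libraries, against 15.6, 20.8, 28.2, 42.0 and 34.5 CPM in fresh ones. Its lowest cultured library was far above the highest fresh one. Ccng1 rose by 3.73 ± 0.35 on the log2 scale (adjusted p = 0.000280), and by 4.62 against run-1 fresh libraries, where its level was lower. Ccng2, its relative that is known to restrain the cell cycle and to be a FoxO target, stood at 2.53, 1.39 and 0.102 CPM in cultured libraries, against 32.3, 24.3, 42.0, 56.7 and 61.2 CPM in fresh ones. It was nearly lost in culture, with 48, 27 and 2 counts. Ccng2 fell by 5.45 ± 0.95 on the log2 scale (adjusted p = 0.00448), with -6.23 without cultured replicate 1 and -4.58 against run-1 fresh libraries. The log2 ratio of Ccng1 to Ccng2 was 8.38 ± 1.03 in cultured and -0.61 ± 0.32 in fresh libraries, with a difference of 9.0 against run 2 and 8.98 against run 1. In fresh replicate 1, where pericyte markers were lowest, Ccng2 stood at 32.3 CPM, within the range of the other fresh libraries. Fibro-adipogenic markers still summed to 877 CPM in that library, and the part of other cell types in the Ccng2 level was not tested.

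The sestrins, stress-inducible proteins that restrain the growth kinase complex mTORC1, likewise parted. Sesn1, a target of p53 and of FoxO factors, stood at 0.211, 1.29 and 1.17 CPM in cultured libraries, against 87.4, 78.4, 70.0, 73.6 and 87.6 CPM in fresh ones. The fresh libraries of both runs were close to each other, and the cultured ones held 4, 25 and 23 counts. Sesn1 fell by 6.49 ± 0.64 on the log2 scale (adjusted p = 0.000348), with -6.37 against run-1 fresh libraries. Fresh replicate 1, with the lowest sum of pericyte markers, had a Sesn1 level of 87.4 CPM, within the range of the other fresh libraries. Its fibro-adipogenic markers summed to 877 CPM, and the part of other cell types in the Sesn1 level was not tested. Sesn2, induced by p53 and by amino acid or ER stress, stood at 23.98, 41.5 and 31.5 CPM in cultured libraries, against 18.7, 15.8, 23.99, 12.4 and 5.73 CPM in fresh ones. Cultured replicate 1 and fresh replicate 3 were level, so the groups overlapped by this pair. Sesn2 rose by 1.83 ± 0.54 on the log2 scale (adjusted p = 0.0352). The call was lost against run-1 fresh libraries (0.80; adjusted p = 0.169), with no run term (1.08; 0.0905), with run 2 alone (1.82; 0.128) and without fresh replicate 5 (1.40; 0.194), and it was 2.55 without fresh replicate 4. It was also lost without fresh replicates 1, 2 or 3 or cultured replicates 2 or 3, at adjusted p-values of 0.0503 to 0.0696. The log2 ratio of Sesn1 to Sesn2 was -4.64 ± 0.43 in cultured and 2.47 ± 0.84 in fresh libraries, a difference of -7.81 against run 2 and -6.64 against run 1. The third sestrin, Sesn3, averaged 4.22 ± 2.30 CPM in cultured and 12.7 ± 3.08 CPM in fresh libraries (SD, n = 3 and 5; adjusted p = 0.191).

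Zmat3, an RNA-binding zinc finger protein induced by p53, stood at 961, 721 and 442 CPM in cultured libraries, against 42.2, 37.3, 38.3, 42.3 and 44.6 CPM in fresh ones. The groups were far apart, with an SD of 259.9 CPM over the cultured libraries and 3.04 CPM over the fresh ones. Zmat3 rose by 4.03 ± 0.37 on the log2 scale (adjusted p = 0.000266). Phlda3, which competes with the kinase Akt for membrane lipids, stood at 115, 45.3 and 39.6 CPM in cultured libraries, against 5.58, 9.35, 7.92, 2.84 and 12.5 CPM in fresh ones. Cultured replicate 1 was well above the other 2 cultured libraries, and the run-2 fresh libraries were the lowest and the highest of the fresh ones. Phlda3 rose by 3.11 ± 0.79 on the log2 scale (adjusted p = 0.0189). The fold change was 2.44 without fresh replicate 4 (adjusted p = 0.0803) and 4.54 without fresh replicate 5 (0.0179), and with run 2 alone the call was lost (3.09; 0.0618). Within culture, Mdm2, Zmat3 and Phlda3 were highest in replicate 1, while Trp53, Mdm4, Ccng1 and Sesn2 were highest in replicate 2. Markers of dividing cells were lowest in cultured replicate 1, at 818 CPM, and their part in these levels was not tested.

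Perp, a membrane protein of cell death and of desmosomes, was near the limit of detection. It stood at 1.69, 0 and 0 CPM in cultured libraries, against 1.77, 2.54, 4.86, 1.01 and 6.12 CPM in fresh ones. The groups overlapped, and all cultured counts came from replicate 1, with 32. Its log2 fold change of -2.65 ± 1.88 did not pass the test (adjusted p = 0.335). Without cultured replicate 1 no count was left in culture and the adjusted p was 0.00969, so this library decides the call, and without fresh replicate 5 the fold change was -0.87.

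**Figure D3:**
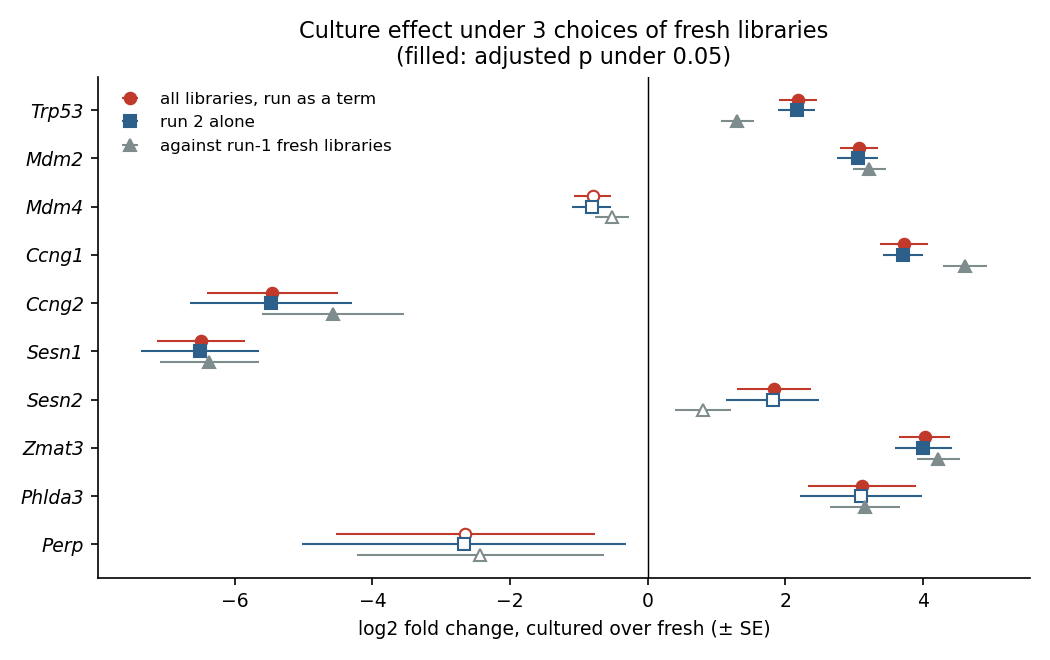
Log2 fold change of cultured over fresh cells, with its SE, for each of the 10 genes under 3 choices of fresh libraries (circles, all libraries with run as a term; squares, run 2 alone; triangles, run-1 fresh libraries alone). Filled symbols have an adjusted p under 0.05. Each gene keeps its direction, while Trp53 lies at 2.18, 2.16 and 1.30 and Sesn2 at 1.83, 1.82 and 0.80.

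Levels of different genes were compared per length, as CPM per kb of the exons in GENCODE M21, an annotation of mm10. The length joins the exons of all annotated transcripts of a gene, with 14798 bases for Mdm4 and 11435 for Zmat3. The transcripts in these cells may be shorter, so the order depends on this choice. In cultured cells the order began with Mdm2 (175 ± 42.6 CPM per kb, SD, n = 3), Ccng1 (144 ± 25.1) and Trp53 (97.9 ± 18.3). In fresh cells it began with Trp53 (33.5 ± 12.3 CPM per kb, SD, n = 5), Mdm4 (21.1 ± 4.00), Mdm2 (20.0 ± 1.04) and Sesn1 (19.9 ± 2.00), which overlapped each neighbour in that order. The first place of Trp53 in fresh cells held in the run-1 libraries, where it averaged 168 CPM, against 87.2 CPM in run 2. Per kb, Mdm4 was above Trp53 in fresh replicate 4, and Sesn1 was above it in fresh replicate 5. Sesn1 went to last place in cultured cells at 0.223 ± 0.148 CPM per kb, beside Ccng2 at 0.246 ± 0.223 and Perp at 0.288 ± 0.499, and these 3 overlapped. Zmat3 followed Trp53 in cultured cells at 61.9 ± 22.7 CPM per kb and stood above only Perp in fresh cells at 3.58 ± 0.266. In culture only Ccng1 and Trp53, Phlda3 and Mdm4, and Sesn2 and Perp were neighbours in the order that did not overlap in any library. In fresh cells the neighbours without overlap were Sesn1 and Ccng1, and Zmat3 and Perp. The annotated gene bodies in mm10 are chr11:69580359-69591873 for Trp53, chr10:117688875-117710758 for Mdm2, chr11:40748552-40755311 for Ccng1, chr10:41809935-41908424 for Sesn1 and chr3:32334792-32366014 for Zmat3. No exon of another annotated gene overlapped the exons of the 10 genes, all of which are protein coding.

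**Figure D4:**
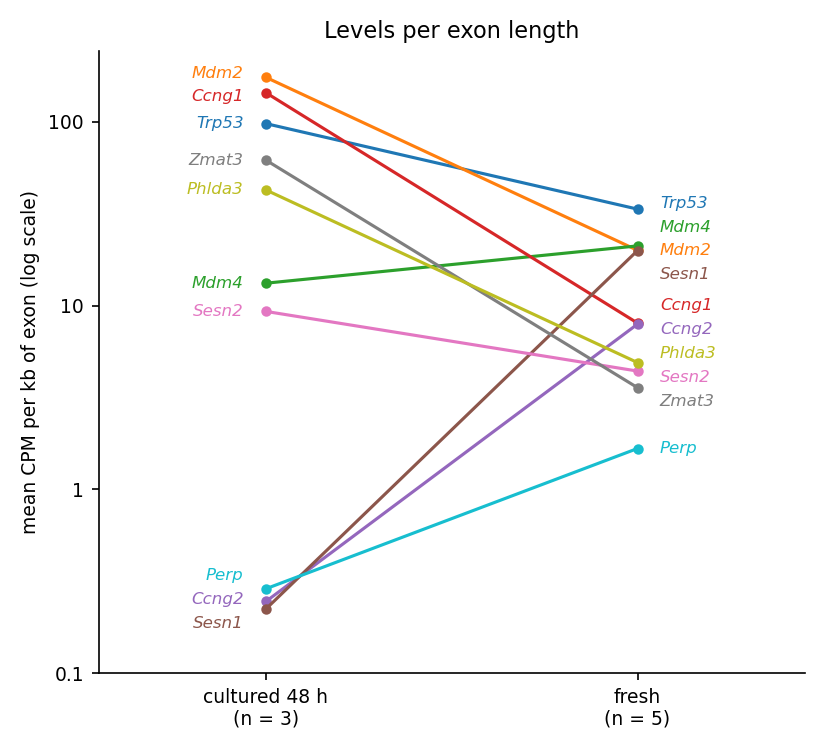
Mean level per exon length of each gene, in CPM per kb on a log axis, in cultured (left, n = 3) and fresh cells (right, n = 5). Mdm2 leads in culture at 175 CPM per kb, and the lines of Sesn1 and Ccng2 run steeply upward to the fresh side. Trp53 leads in the mean of all fresh libraries at 33.5, but not in either run-2 fresh library.

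The other genes of the pathway were read from lists of p53 targets and regulators, beside the 8.87% of all tested genes that were higher and the 18.0% that were lower. Here and below, means of fresh cells cover all 5 fresh libraries, while the main fold changes are relative to fresh replicates 4 and 5. A ratio of the means can therefore differ from the fold change. Of 14 p53 targets of cell death, 5 rose and 9 did not pass the test, with a median log2 fold change of 1.81, beside -0.21 over all tested genes. Without cultured replicate 1, 8 rose and 1 fell, and against run-1 fresh libraries 9 rose. Aen, a nuclease of apoptosis, rose to 234 ± 94.2 CPM in cultured cells, against 18.8 ± 7.59 CPM in fresh cells (SD, n = 3 and 5; 4.09 ± 0.63; adjusted p = 0.00266). Bax, which opens the mitochondrial outer membrane, rose to 41.3 ± 5.00 CPM in cultured cells, against 4.18 ± 1.73 CPM in fresh cells (3.79 ± 0.69; 0.00537). Tnfrsf10b, a death receptor, rose to 47.5 ± 5.04 CPM in cultured cells, against 6.57 ± 2.81 CPM in fresh cells (3.66 ± 0.51; 0.00165). Trp53i11 rose to 62.2 ± 36.9 CPM in cultured cells, against 2.72 ± 1.78 CPM in fresh cells (5.40 ± 1.04; 0.00642). The other gene that rose was the receptor gene Eda2r, chosen after its value was known (3.27 ± 0.46). The fold changes of Aen, Bax and Trp53i11 moved when 1 run-2 fresh library was left out, with 5.21 for Aen without replicate 5, 5.03 and 3.15 for Bax and 7.35 and 4.64 for Trp53i11 without replicates 4 and 5 in turn. Against run-1 fresh libraries they were 3.46 for Aen, 3.11 for Bax, 2.56 for Tnfrsf10b and 4.21 for Trp53i11, and each passed the test.

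The arrest targets outside the 10 genes divided as well. Of 10 listed, 8 were tested, 4 rose and 2 fell, with a median log2 fold change of 0.42. Cdkn1a, the inhibitor of cyclin-dependent kinases through which p53 stops the cycle, stood at 669, 473 and 344 CPM in cultured libraries, against 155, 155, 215, 90.0 and 87.4 CPM in fresh ones. Its libraries did not overlap, and it shared with Trp53 low values in both run-2 fresh libraries. Its log2 fold change was 2.48 ± 0.34 (adjusted p = 0.00149), and 1.55 against run-1 fresh libraries. Gtse1, a protein of S and G2 phase that restrains p53, rose to 56.7 ± 13.1 CPM in cultured cells, against 0.578 ± 0.384 CPM in fresh cells (6.84 ± 1.29; adjusted p = 0.00584). Fresh replicate 4 held none of its transcripts, and the fold change was 5.90 without that library, while without fresh replicate 5 no Gtse1 count was left in run-2 fresh libraries. Btg2, an antiproliferative gene, stood at 23.3, 26.8 and 35.4 CPM in cultured libraries, against 917 to 1486 CPM in fresh ones (-5.04 ± 0.24; 1.62e-05). Gadd45a, a stress sensor, fell to 56.3 ± 45.9 CPM in cultured cells, against 345 ± 108 CPM in fresh cells (-3.0 ± 0.55; 0.00551), with -3.85 without cultured replicate 1 and -2.25 against run-1 fresh libraries. The other 2 that rose, chosen with their values known, were Plk2 (1.65 ± 0.27) and Cgref1, which had 3 counts in the run-2 fresh libraries and a ratio of 52.7 (95% counting interval 17.8 to 257).

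Of 14 p53 targets of repair and metabolism, 3 rose and 11 did not pass, with a median of 0.35. Without cultured replicate 1, 2 of them fell, and 1 fell without cultured replicate 2 or 3. Polk, a translesion DNA polymerase, rose to 106 ± 49.5 CPM in cultured cells, against 10.6 ± 3.46 CPM in fresh cells (3.33 ± 0.62; adjusted p = 0.00555), with 4.13 without fresh replicate 5. Gpx1, a glutathione peroxidase, rose to 73.0 ± 4.27 CPM in cultured cells, against 21.8 ± 5.19 CPM in fresh cells (1.99 ± 0.38; 0.00591). Pcna, the replication clamp, rose to 187 ± 17.0 CPM in cultured cells, against 43.7 ± 21.4 CPM in fresh cells (1.51 ± 0.34; 0.0119). Its mean was 65.4 CPM in the run-2 fresh libraries. The Pcna call was lost without fresh replicate 4 (0.0689) or 5 (0.0638), and its log2 fold change was 2.74 against run-1 fresh libraries. Of 24 regulators of p53, 23 were tested, 3 rose and 1 fell, with a median of 0.08. Without fresh replicate 5, 1 rose and 0 fell, without cultured replicate 1, 2 fell, without cultured replicate 3, 3 fell, and against run-1 fresh libraries 6 rose. Npm1, a nucleolar protein that binds Mdm2 and has processed copies in the genome, rose to 3457 ± 363 CPM in cultured cells, against 436 ± 158 CPM in fresh cells (2.54 ± 0.27; 0.000530), and by 3.45 against run-1 fresh libraries. Atm, the kinase that signals DNA breaks to p53, rose to 114 ± 27.3 CPM in cultured cells, against 38.8 ± 4.97 CPM in fresh cells (1.43 ± 0.31; 0.00987, and 0.0529 without fresh replicate 5). Bcl6, a repressor of Trp53, fell to 91.5 ± 30.7 CPM in cultured cells, against 212 ± 25.8 CPM in fresh cells (-1.35 ± 0.30; 0.0110). The Bcl6 call was lost without fresh replicate 5 (0.0632) and with the replicate number as a block (0.0682). The remaining riser among the regulators was the checkpoint kinase Chek1, chosen after its value was known (2.97 ± 0.79).

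Since Ccng2 and Sesn1 are FoxO targets too, the FoxO list was set beside them. Of its 16 tested genes other than these, 8 fell, 1 rose and 7 did not pass, with a median log2 fold change of -2.42, which is the same with Pik3ip1 at its bound. Of all tested genes, 18.0% were lower and 8.87% higher, with a median of -0.21. In the FoxO list, 5 fell and 0 rose without fresh replicate 5. Bcl6 and Gadd45a are in this list and in a p53 list. Pik3ip1, an inhibitor of PI3 kinase, had no count in cultured libraries and stood at 37.8, 35.2, 29.3, 23.1 and 28.4 CPM in fresh ones. Its mean was 25.7 CPM in the run-2 fresh libraries. With 3 counts summed over the cultured libraries as the floor, it was at least 498-fold below that mean (adjusted p = 0.000271, edgeR). Pink1, a kinase of mitochondrial quality control, fell to 2.26 ± 1.19 CPM in cultured cells, against 63.5 ± 26.5 CPM in fresh cells (-5.29 ± 0.55; 0.000485), with -4.29 against run-1 fresh libraries. Rbl2, a retinoblastoma relative, fell to 4.90 ± 2.15 CPM in cultured cells, against 77.9 ± 11.0 CPM in fresh cells (-4.08 ± 0.44; 0.000576). Irs2, an insulin receptor substrate, fell to 20.3 ± 16.1 CPM in cultured cells, against 173 ± 45.5 CPM in fresh cells (-3.42 ± 0.84; 0.0167). The Irs2 call was lost without fresh replicate 4 (0.0623) or 5 (0.0706), with run 2 alone (0.0617) and with the replicate block (0.0686), and the fold change was -2.82 without cultured replicate 1 and -2.73 against run-1 fresh libraries. The other 2 that fell were the factor gene Foxo1 (-2.94 ± 0.75) and the cell cycle inhibitor Cdkn1b (-2.08 ± 0.32), and the 1 that rose was Cited2 (1.60 ± 0.33), all chosen after their values were known. Pericyte, fibro-adipogenic, Schwann, endothelial and blood cell markers summed lower in the cultured libraries, with the values given above. Their part in the list was not tested.

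**Figure D5:**
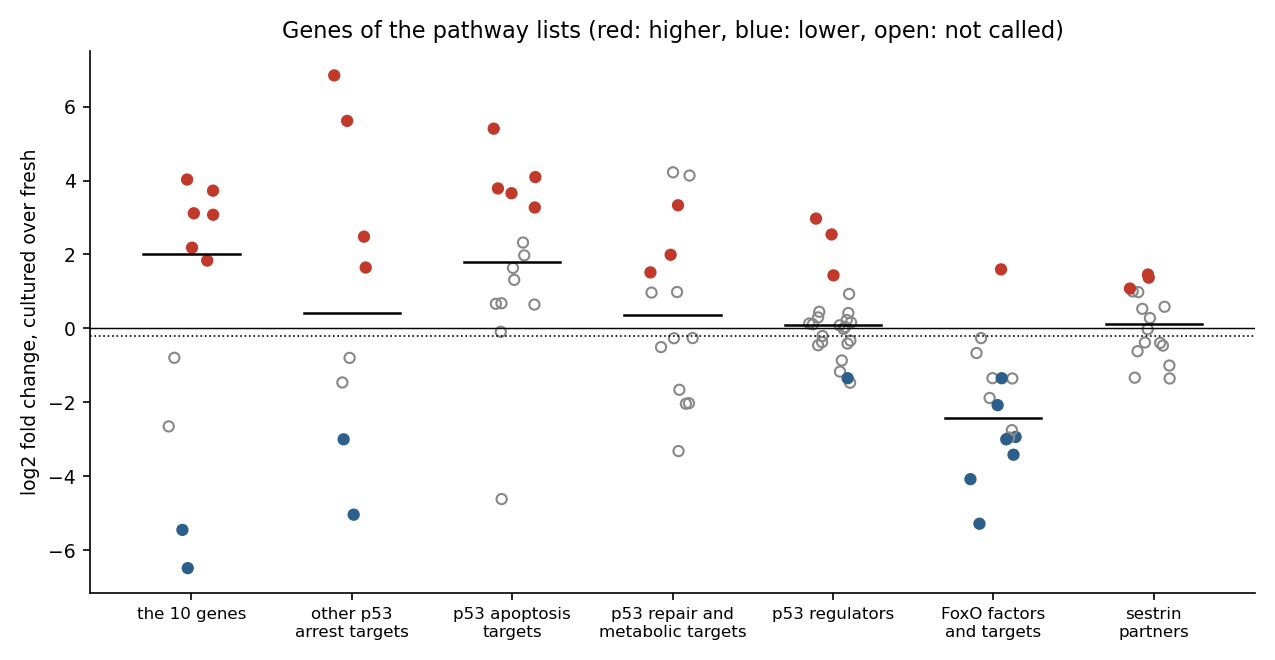
Log2 fold change of cultured over fresh cells for the tested genes of each list (red, higher; blue, lower; open, not called), with a bar at the list's median and a dotted line at the median of all tested genes, -0.21. Ccng2 and Sesn1 are shown among the 10 genes and not in the FoxO list, and Pik3ip1, at 0 in culture, is left out of the points and kept in the median.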

How the data were processed

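RNA-seq was done on 8 libraries. Per the labels' protocols, a Qiagen micro kit gave the RNA, NuGEN Ovation v2 the cDNA and an Illumina kit the libraries. The submitters' processing notes name STAR, RSEM and mm10. No source used here gives their versions. The authors deposited expected counts, estimated by RSEM, which divides a read that fits several genes among them. Of the values above 0, 50.1% were not whole, and all were rounded. The 92 ERCC spike-in lines were left out, which left 45706 lines, 2423 of them without an identifier.

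filterByExpr kept 19054 genes, TMM factors were 0.790 to 1.18, and edgeR 4.0.16 in R 4.3.3 was run with run and culture as terms (5 residual degrees of freedom). DESeq2 1.42.0 was an alternative. Standard errors are the fold change over the root of the F statistic. Permutation tests used scipy 1.17.1 and ratios a pseudocount of 0.5 CPM. Intervals and floors cover counting error only, since no molecular identifiers are mentioned. Scripts were tested on simulated data.

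The 10 genes and the lists were chosen with earlier results of these data known. Beside the 10, each list names up to 4 called genes with at least 10 CPM and the largest change, or its 2 most abundant if under 2 were called, and Cdkn1a, Btg2 and Sesn3 always. The sign of each difference is cultured minus fresh.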

Additional observations from a re-analysis of the deposited data

How the results depend on the processing

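Trp53, Mdm2, Ccng1, Ccng2, Sesn1 and Zmat3 kept their direction and their call under all 17 alternatives run, including DESeq2 and each left-out library, with adjusted p-values of at most 0.0363. Mdm4 was called with the size factors of DESeq2 and with DESeq2 (-0.86 in each), and without single libraries it ran from -1.02 to -0.46. Sesn2 lost its call with no filter (1.88), no run term (1.08), run 2 alone (1.82), run-1 fresh libraries alone (0.80) and the replicate block (0.71), and ran from 1.40 to 2.55 without single libraries. Phlda3 lost it with run 2 alone (3.09) and ran from 2.44 to 4.54, and Perp ran from -8.92 to -0.87. Over all genes, run 2 alone gave 1013 higher and 1767 lower, and higher genes ran from 896 (without fresh replicate 5; 908 without fresh replicate 4) to 2198 without single libraries.

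The replicate block, which pairs by number and so sets cultured libraries against run-1 fresh ones, gave 1081 higher and 1401 lower genes over all, with 5 of the 10 genes higher and 2 lower, and log2 fold changes of 1.24 for Trp53 and 4.58 for Ccng1. Deviations of libraries with the same number were almost uncorrelated across genes (Pearson r 0.0296, 0.0103 and 0.0108 for replicates 1 to 3). Each deviation is from the mean of few libraries, so these values cannot tell whether libraries with the same number share animals.

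With a pseudocount of 0.1 or 1 CPM the difference was 9.70 or 8.502 for Ccng1 to Ccng2 and -7.78 or -6.59 for Sesn1 to Sesn2, and each ratio kept its sign and its exact p. The ratio tests cannot reach 0.05 with fewer libraries, and all differences kept their sign. With run 2 alone they were 3.83 (Mdm2 to Mdm4), 0.88 (Mdm2 to Trp53), -2.96 (Mdm4 to Trp53), 9.0 (Ccng1 to Ccng2) and -7.81 (Sesn1 to Sesn2), and with run-1 fresh libraries 3.73, 1.89, -1.83, 8.98 and -6.64 in that order. Without single libraries they ran from 3.53 to 3.89, 1.32 to 1.64, -2.50 to -2.06, 8.45 to 9.48 and -7.35 to -6.77. The difference between runs in fresh cells was called for Trp53 with DESeq2 (-0.96) and with fresh libraries alone (-0.9999), and changed sign for genes near 0. It was -0.0046 for Phlda3 with DESeq2, and -0.0170 for Sesn1 and -0.0372 for Phlda3 with fresh libraries alone. Without single fresh libraries it ran from -1.37 to 0.73 for Phlda3, -1.53 to 1.02 for Perp, -0.0619 to 0.17 for Sesn1 and -0.0579 to 0.50 for Mdm4. For the other named genes, 354 of 391 values kept their direction and call, 37 lost the call and none changed sign. Counts over the lists moved more. Cell death targets that rose were 8 without scaling factors, with DESeq2 or with no run term, and 1 fell with DESeq2, no filter or no run term. Regulators that rose were 5 without scaling factors, and 3 fell with DESeq2, 2 with no run term and 0 with the replicate block. Repair targets that fell were 2 with DESeq2 or no run term. Sestrin partners that rose were 1 with no filter, run 2 alone or the replicate block, and 1 fell with no run term. The cause of the changed calls was not tested. Depth limits Perp and the cultured levels of Ccng2 and Sesn1, which rest on few counts.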

Other observations

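Sestrins act on mTORC1 through the GATOR complexes and the kinase AMPK, and 16 genes of that route were tested. Of these, 3 rose and 13 did not pass the test, with a median log2 fold change of 0.13. Over all tested genes 8.87% were higher and 18.0% lower, with a median of -0.21. Rptor, the scaffold of mTORC1, rose to 113 ± 20.7 CPM in cultured cells, against 46.7 ± 14.1 CPM in fresh cells (SD, n = 3 and 5; 1.46 ± 0.39; adjusted p = 0.0235, edgeR). Prkaa1, a catalytic subunit of AMPK, rose to 98.2 ± 9.03 CPM in cultured cells, against 38.2 ± 8.79 CPM in fresh cells (1.08 ± 0.29; 0.0234). Sec13, a GATOR component that also serves the nuclear pore and protein export, rose to 45.9 ± 9.10 CPM in cultured cells, against 16.0 ± 3.90 CPM in fresh cells (1.37 ± 0.44; 0.0484). The count depends on single libraries: 0 rose without fresh replicate 4, and 0 rose and 1 fell without cultured replicate 3. Without fresh replicate 4 all 3 lost the call, at adjusted p-values of 0.156 for Rptor, 0.0900 for Prkaa1 and 0.224 for Sec13. Rptor and Prkaa1 also lost it without cultured replicate 3 (0.0510 and 0.0511), and Prkaa1 without fresh replicate 5 (0.108). Sec13 lost it without any one fresh library and without cultured replicates 2 (0.0909) or 3 (0.0825).

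Of the p53 relatives, Trp63 stood at 0, 1.34 and 0 CPM in cultured libraries, against 11.6, 9.55, 7.26, 24.3 and 14.1 CPM in fresh ones. Its call (-5.40 ± 1.67; adjusted p = 0.0427) was lost without any one fresh library, without scaling factors, with run 2 or run-1 fresh libraries alone and with the replicate block, and cultured replicate 2 held all its counts in culture. Trp73 was too low to test.

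The level profile most like that of Trp53 over the 8 libraries, by root mean square distance of centred log2 CPM among 7967 genes with a mean of at least 10 CPM, belonged to Slc7a5, an amino acid transporter subunit, at a distance of 0.134. Next were Ldha, lactate dehydrogenase, at 0.178, and Hnrnpab, an RNA-binding protein, at 0.187. Slc7a5 stood at 325, 358 and 279 CPM in cultured libraries, against 142, 104, 94.5, 69.7 and 62.3 CPM in fresh ones. Like Trp53, it was lowest in both run-2 fresh libraries. Because it was chosen by likeness to Trp53 over these same libraries, this is no separate observation.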
